A study of Caenorhabditis elegans with 6 samples.

Results

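The genes described here are those of Caenorhabditis elegans whose symbol is abu, pqn or phat followed by a number, 82 of the 20189 protein-coding genes measured. They comprise 14 abu, 62 pqn and 6 phat genes. The rule uses the symbol alone and no measured value, but the set was chosen with earlier results of these data known. Ribosome profiling counts the short mRNA stretches that ribosomes cover, and those footprint reads were counted per gene. All libraries came from whole L4 hermaphrodites grown at 23 °C that were rpl-36A(P55Q)/mIn1 heterozygotes. The P55Q change lies in a ribosomal protein of the large subunit, and mIn1 is a balancer chromosome. The CHX group (3 libraries) was placed as eggs on plates with cycloheximide, an inhibitor of translation elongation, at 500 µg/ml and collected after 3 days. The no CHX group (3 libraries) was grown on plates without it for 2 days. Culture time and treatment cannot be told apart, and no wild-type animals enter the comparison. A footprint level also joins mRNA amount and ribosome loading, and in whole worms fewer cells of a type and less RNA per cell cannot be told apart.

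The pharynx of the worm is its feeding organ, a muscular tube lined by a flexible cuticle that is shed and rebuilt at each molt together with the body cuticle. The abu genes (activated in blocked unfolded protein response) were named for their induction in animals that lack part of the endoplasmic reticulum stress response, and several abu and pqn genes were later placed in the cells that build the pharyngeal cuticle. The name pqn (prion-like, glutamine- and asparagine-rich) refers to protein sequence and not to a tissue, so that pqn genes include a cohesin loader and a poly(A) polymerase. The phat genes are named for pharyngeal gland expression and a toxin-related domain. The symbols therefore do not mark 1 cell type. No protein or promoter sequence was analysed here.

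Library totals ran from 1601009 to 1901815 reads, and the members took 0.531 to 0.552% of the reads in CHX libraries and 0.50 to 0.562% in no CHX libraries. Levels are given as CPM, read counts scaled to a common library size (counts per 1000000 reads) with TMM factors, which adjust for library composition. CPM is not corrected for coding length, so levels are compared between libraries and not between genes. Fold changes are log2 of CHX over no CHX, and a gene is said to have risen or fallen where edgeR's quasi-likelihood test gave a Benjamini-Hochberg adjusted p under 0.05 over all 10632 genes tested. The labels do not tell whether each replicate was a culture of its own, and the p-values therefore reflect library-to-library spread that could be partly technical.

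Of the 82 members, 61 had enough reads to be tested, 15 had reads but were too low to test, and 6 had no read in any library. Among the 61 tested, 20 rose and 7 fell with CHX, and 34 were not called. Over all genes tested, 22.2% rose and 20.0% fell (42.2% in either direction), against 32.8% and 11.5% of the members. The median log2 fold change was 0.09 over the tested members and 0.03 over all genes tested. At least a 2-fold change was seen in 10 of the risers and in 1 of the genes that fell. All 3 CHX libraries lay above all 3 no CHX libraries for 23 members and below them for 7, so that 31 of the 61 overlapped between the groups. Such separation occurred in 52.5% of all genes tested. A gene was tested where at least 3 libraries reached 5.67 CPM before TMM scaling, so a gene at low counts could enter through 1 group alone, and had then to be high there. That was so for 9 members through the CHX libraries (abu-6, phat-5, phat-6, pqn-25, pqn-60, pqn-71, pqn-75, pqn-82 and pqn-88) and for pqn-2 through the no CHX libraries, and 8 of these 10 were called in the direction of that group. Over the whole table, 57.1% of the 971 genes that entered through CHX alone rose. Of the 456 that entered through no CHX alone, 54.2% fell. The other 51 members reached the level in all libraries of each group, and of them 13 rose (25.5%) and 6 fell (11.8%). Among the 8867 genes of the whole table that did so, 20.4% rose and 21.1% fell. Of the 20 risers, 12 kept the call whichever single library was left out, as did 5 of the 7 genes that fell. With DESeq2 in place of edgeR, 12 members rose and 8 fell.

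No tested abu gene rose and 2 of 10 fell (20.0%, median log2 fold change -0.45). Among 46 tested pqn genes, 18 rose (39.1%) and 5 fell (10.9%, median 0.31). Of the 5 tested phat genes, 2 rose and none fell (median 0.07). Over all genes tested, 22.2% rose and 20.0% fell. Both phat risers and 5 of the 18 pqn risers entered the test through the CHX libraries alone. Of the 39 pqn genes that reached the filter in each group, 13 rose and 4 fell, and none of the 3 such phat genes was called. Of all genes that did so, 20.4% rose and 21.1% fell. At an unadjusted p under 0.05 in edgeR, and with DESeq2 at an adjusted p under 0.05, still 0 abu genes rose and 0 phat genes fell. The difference between families was not tested.

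Summed over each family, the abu genes had 766, 681 and 811 CPM in CHX replicates 1 to 3, against 1080.1, 1143 and 1028 CPM in no CHX replicates 1 to 3. The summed abu level averaged 753 ± 66.0 CPM with CHX and 1084 ± 57.3 CPM without (SD, n = 3 each), a ratio of 0.695. Of the difference of -331 CPM, -323 CPM lay in abu-11, abu-12, abu-13 and abu-14, which summed to 594 CPM with CHX and 916 CPM without, whereas the 10 other abu genes summed to 159 CPM with CHX and 167 CPM without. Those 4 genes were picked for having the largest falls in mean CPM, so the others had to differ less. Of the 4, abu-11 and abu-13 were not called. For the summed abu level, all 3 CHX libraries lay below all 3 no CHX libraries. The summed pqn level was 4347 ± 82.0 CPM with CHX and 4203 ± 249.9 CPM without, and the groups overlapped. The summed phat level was 258 ± 14.1 CPM with CHX and 241 ± 24.4 CPM without, also with overlap. These sums have no test.

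**Figure D1:**
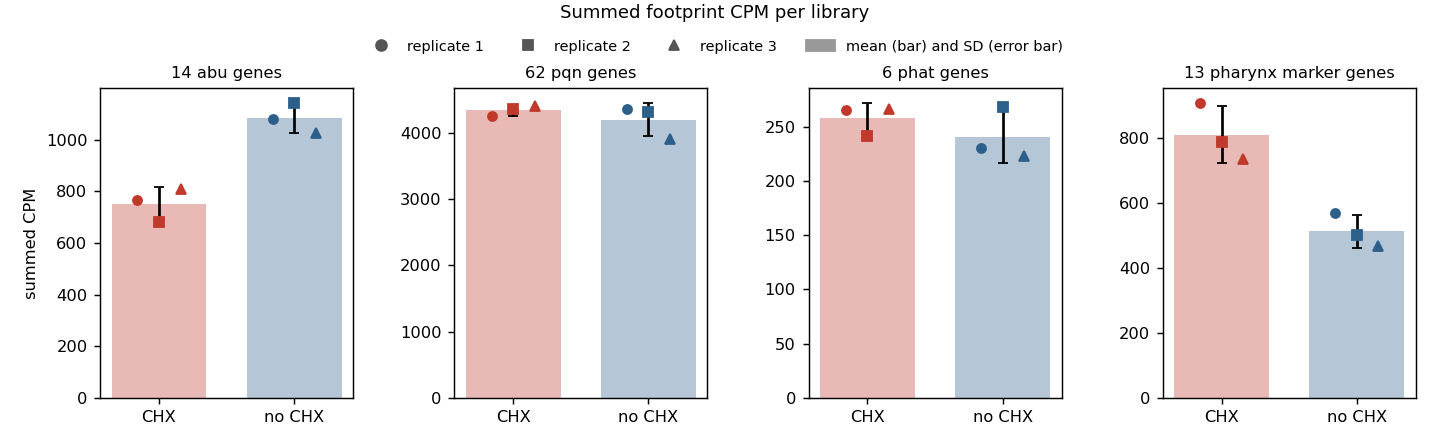
Summed footprint CPM of the abu, pqn and phat genes and of 13 pharynx marker genes in each library, CHX left of no CHX in each panel. Bars are means with SD over 3 libraries and points are libraries, with the marker shape giving the replicate number; the scales differ between panels and start at 0. The abu sums lie between 681 and 811 CPM with CHX and between 1028 and 1143 CPM without, the pqn and phat sums overlap, and the pharynx marker sums lie above with CHX.

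The 2 abu genes that fell were abu-14 and abu-12. For abu-14, CHX replicates 1 to 3 had 208, 250.3 and 251 CPM, against 375, 411 and 351 CPM in no CHX replicates 1 to 3. The log2 fold change was -0.68 ± 0.105 (SE; edgeR adjusted p = 5.93e-05). Every CHX library lay below every no CHX library, and abu-14 kept its call without any 1 library. For abu-12, the CHX libraries had 121, 74.1 and 80.6 CPM and the no CHX libraries 131, 147 and 194 CPM. Its log2 fold change was -0.78 ± 0.208 (SE; edgeR adjusted p = 0.0151). The groups of abu-12 were separate but close, with CHX replicate 1 next to no CHX replicate 1. When replicate 3 of both groups was left out, abu-12 lost its call (log2 fold change -0.50, edgeR adjusted p = 0.0718). In that setting abu-14 kept its call (-0.78). The setting was chosen after the abu levels were seen. It takes out the highest no CHX library of abu-12, and the highest CHX and lowest no CHX library of abu-14. The direction of both shifts therefore follows from the choice, and the contrast does not rank the 2 genes.

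The other 8 tested abu genes were not called, and all 8 overlapped between the groups. For abu-11, the CHX libraries had 69.3, 79.7 and 129.8 CPM and the no CHX libraries 143, 132 and 107 CPM (log2 fold change -0.45, edgeR adjusted p = 0.166). For abu-1, they had 6.15, 7.47 and 14.1 CPM with CHX and 22.2, 13.7 and 10.1 CPM without (-0.69, edgeR adjusted p = 0.137). For abu-8, they had 38.6, 38.0 and 80.1 CPM with CHX and 67.2, 50.3 and 26.9 CPM without (0.14, edgeR adjusted p = 0.843). In each of these, CHX replicate 3 was the highest CHX library and no CHX replicate 3 the lowest no CHX library, and those libraries cross. The same order held for abu-10, which had 39.1, 46.1 and 81.7 CPM with CHX and 61.5, 57.2 and 42.1 CPM without. The genes abu-6, abu-7 and abu-15 had lower counts and the same order, with log2 fold changes of 0.05, -0.46 and -0.06.

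This order of libraries was found in 8 of the 10 tested abu genes, abu-14 among them, in 14 of 46 pqn genes and in 1 of 5 phat genes. In the comparison lists described below, 4 of 8 tested pharynx markers and 5 of 12 pharyngeal cuticle genes had it. So did 2 of 17 molting genes and 0 of 18 endoplasmic reticulum stress genes. Over all genes tested, 13.5% had it. The median ratio of the highest to the lowest CHX library was 1.88 over the abu genes and 1.27 over all genes, and the same ratio among no CHX libraries was 1.75 and 1.31 (0.5 CPM added to each value). The abu levels thus varied more between replicates than the median gene did. This was not particular to them, since the median ratios with and without CHX were 1.89 and 1.57 over the molting genes. They were 1.51 and 1.47 over the pharyngeal cuticle genes, 1.36 and 1.30 over the pharynx markers, and 1.13 and 1.23 over the endoplasmic reticulum stress genes. With CHX replicate 3 left out, abu-1 (log2 fold change -1.15, edgeR adjusted p = 0.0314) and abu-11 (-0.77, adjusted p = 0.00137) passed the threshold. Without no CHX replicate 3, abu-1 passed it (-0.96, edgeR adjusted p = 0.0349) and abu-11 did not (-0.60, adjusted p = 0.129). These were the highest CHX and the lowest no CHX library of both genes. Leaving either out had to deepen the fall, so these passes are no support for it.

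The last tested abu gene, abu-13, turned on another library. It had 249, 147 and 121 CPM in the CHX libraries and 211, 277 and 269 CPM in the no CHX libraries (log2 fold change -0.55, edgeR adjusted p = 0.200). CHX replicate 1 lay within the no CHX range and the other CHX libraries below it. Without CHX replicate 1, abu-13 passed the threshold (-0.91, edgeR adjusted p = 9.51e-05). The pqn gene pqn-32, which RefSeq calls dbd-8, was also high in CHX replicate 1, with 266, 128 and 113 CPM with CHX and 193, 230.3 and 213 CPM without (-0.33, edgeR adjusted p = 0.543). Without CHX replicate 1 its log2 fold change was -0.82 (edgeR adjusted p = 1.14e-04). For abu-13 and pqn-32 this took out the highest CHX library, so the fall had to deepen. Of the 4 abu genes not tested, abu-4 had 2 reads with CHX and 15 without, a ratio of 0.128 with a 95% counting interval of 0.0142 to 0.552. Counting error is all that this interval covers. The gene abu-2 had 1 read, and abu-5 and abu-9 had none.

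**Figure D2:**
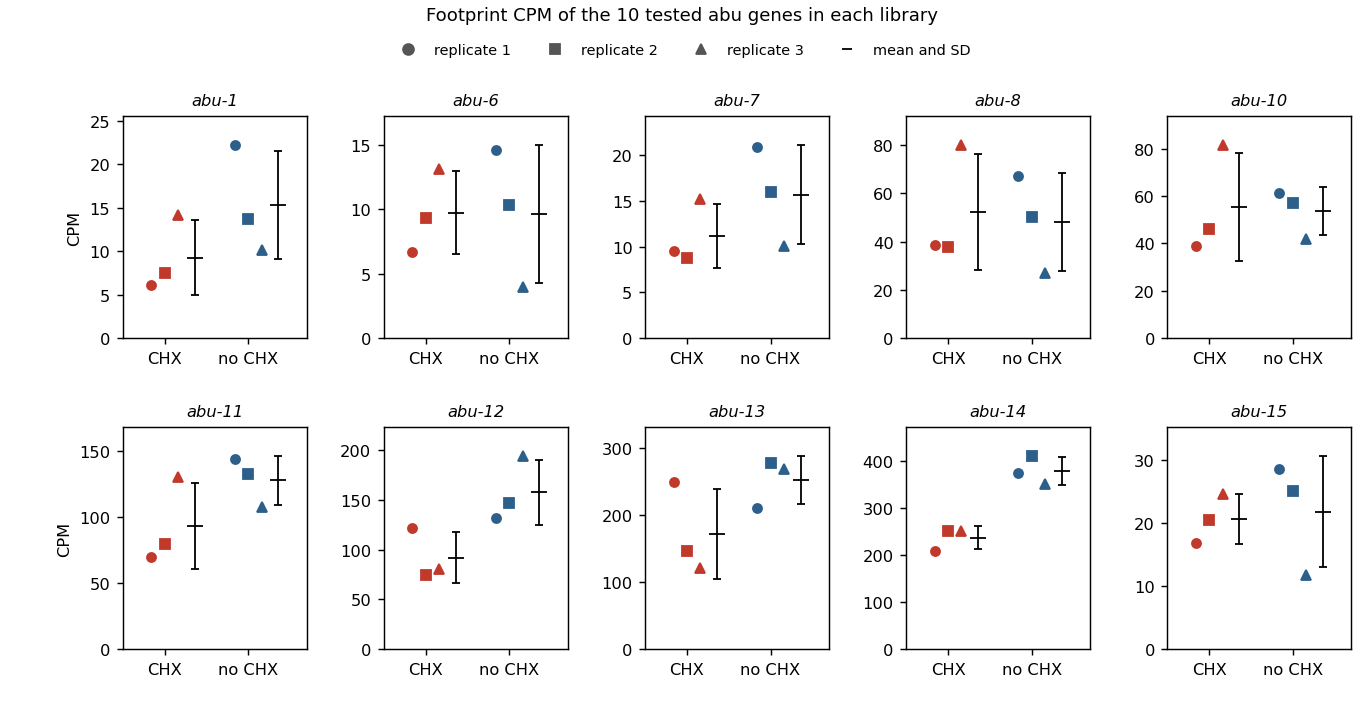
Footprint CPM of the 10 tested abu genes in each library, CHX left of no CHX in each panel, with a separate linear scale from 0 for each gene. Marker shapes give the replicate number and the bars are mean and SD over 3 libraries. In abu-14 and abu-12 the groups do not overlap, and in abu-8 and abu-10 replicate 3 is the highest CHX library and the lowest no CHX library.

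Among the pqn genes that fell, pqn-2 had the largest fold change, but it entered the test only through the no CHX libraries, where it was high. It had 2.79, 3.11 and 5.23 CPM with CHX and 11.4, 11.4 and 9.54 CPM without (log2 fold change -1.50 ± 0.352 SE, edgeR adjusted p = 0.00234). Its groups did not overlap. For pqn-74, the CHX libraries had 112, 131 and 139 CPM and the no CHX libraries 276, 226 and 199 CPM (-0.87 ± 0.128 SE, edgeR adjusted p = 3.93e-05). For pqn-63, they had 23.5, 37.4 and 40.8 CPM with CHX and 58.4, 65.2 and 56.7 CPM without (-0.82 ± 0.179 SE, edgeR adjusted p = 0.00130). All 3 genes kept their calls without any 1 library. Smaller falls were called for pqn-26 and pqn-29. The gene pqn-26 had 39.7, 33.0 and 34.5 CPM with CHX and 52.6, 41.2 and 60.6 CPM without (-0.52, edgeR adjusted p = 0.0189), and pqn-29 had 39.1, 41.1 and 46.1 CPM with CHX and 60.9, 70.9 and 49.4 CPM without (-0.52, adjusted p = 0.0145). The groups of both genes were separate by narrow margins. The call of pqn-26 was lost without CHX replicate 2 (-0.47), CHX replicate 3 (-0.49) or no CHX replicate 3 (-0.43), and that of pqn-29 without CHX replicate 1 (-0.46) or no CHX replicate 2 (-0.44).

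The gene pqn-54 had the replicate 3 order seen in the abu genes. Its CHX libraries had 45.3, 38.0 and 78.0 CPM and its no CHX libraries 117, 114 and 60.6 CPM. It was not called (log2 fold change -0.84 ± 0.386 SE, edgeR adjusted p = 0.146), with replicate 3 of the groups crossing. It passed without CHX replicate 3 (-1.21, edgeR adjusted p = 0.0145) or without no CHX replicate 3 (-1.13, adjusted p = 0.0199). Each time the library left out was the one nearest the other group, so the fall had to deepen.

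The 18 pqn genes that rose had log2 fold changes between 0.42 and 2.79, and 8 of them changed at least 2-fold. The largest was in pqn-60, which RefSeq calls srlf-35 and which was tested only by way of its CHX libraries. It had 25.7, 22.4 and 22 CPM with CHX and 3.17, 2.86 and 3.93 CPM without (log2 fold change 2.79 ± 0.300 SE, edgeR adjusted p = 1.30e-06). The lowest CHX library was several times the highest no CHX library. For pqn-31, the CHX libraries had 84.9, 82.2 and 98.9 CPM and the no CHX libraries 21.6, 10.9 and 8.42 CPM (2.73 ± 0.233 SE, edgeR adjusted p = 7.35e-07). For pqn-94, they had 70.4, 83.4 and 89.0 CPM with CHX and 28.5, 19.4 and 14 CPM without (1.98 ± 0.198 SE, edgeR adjusted p = 8.23e-07). The CHX libraries of both genes lay close together, while the no CHX libraries spread more in proportion, with replicate 1 highest.

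At low counts, pqn-88, pqn-82, pqn-75 and pqn-25 rose. Each entered the test only through the CHX libraries, so its p is not independent of its being high there. The gene pqn-88 had 7.26, 8.09 and 6.80 CPM with CHX and 1.27, 2.29 and 1.68 CPM without (log2 fold change 2.02, edgeR adjusted p = 0.00117). The gene pqn-82 had 6.15, 11.2 and 10.5 CPM with CHX and 3.17, 2.29 and 3.93 CPM without (1.54, edgeR adjusted p = 0.00454). The gene pqn-75, known from the pharyngeal gland cells, which secrete into the lumen, had 9.50, 10.6 and 13.1 CPM with CHX and 1.90, 5.14 and 4.49 CPM without (1.49, edgeR adjusted p = 0.00332). In all 3 genes the groups did not overlap. The gene pqn-25 had 10.6, 10.6 and 11.5 CPM with CHX and 6.34, 4.57 and 3.37 CPM without (1.20, edgeR adjusted p = 0.00745), again with no overlap. Its call was lost with DESeq2 (1.18, DESeq2 adjusted p = 0.0586).

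At higher counts, pqn-92 had 63.7, 69.1 and 76.4 CPM with CHX and 29.2, 33.2 and 28.6 CPM without (log2 fold change 1.20 ± 0.150 SE, edgeR adjusted p = 6.78e-06). For pqn-65, the CHX libraries had 33.5, 37.4 and 39.8 CPM and the no CHX libraries 18.4, 21.7 and 18.0 CPM (0.93, edgeR adjusted p = 6.60e-04). Both genes were at tight levels in each group. The gene pqn-41, which encodes a polyglutamine protein that promotes death of the male linker cell, had 83.8, 67.9 and 64.4 CPM with CHX and 45.0, 42.9 and 36.5 CPM without (0.80 ± 0.152 SE, edgeR adjusted p = 4.26e-04). The gene pqn-85, called scc-2 in RefSeq, encodes the loader that places cohesin on chromosomes. It had 115, 136 and 132 CPM with CHX and 89.4, 97.2 and 89.2 CPM without (0.48 ± 0.118 SE, edgeR adjusted p = 0.00349). Its change was small, and the CHX libraries were all above the no CHX libraries.

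The 7 other pqn risers, pqn-15, pqn-18, pqn-20, pqn-24, pqn-27, pqn-36 and pqn-72, had log2 fold changes of 0.42 (pqn-24) to 0.79 (pqn-36). Each lost its call in 1 or more of the fits with a single library left out. The gene pqn-36 was the only riser whose groups overlapped, with 38.6, 29.3 and 50.8 CPM with CHX and 30.4, 25.1 and 14 CPM without (edgeR adjusted p = 0.0328). The rise of pqn-15 leaned on CHX replicate 2, with 24.6, 41.7 and 22 CPM with CHX and 18.4, 16.6 and 19.6 CPM without (0.67, edgeR adjusted p = 0.0358). Left-out libraries ended each of these calls as follows. Without no CHX replicate 3, the log2 fold change was 0.69 for pqn-15, 0.44 for pqn-18, 0.49 for pqn-20, 0.35 for pqn-24, 0.29 for pqn-27 and 0.48 for pqn-36. Without no CHX replicate 2, it was 0.56 for pqn-15, 0.39 for pqn-27, 0.81 for pqn-36 and 0.46 for pqn-72. Without no CHX replicate 1, it was 0.64 for pqn-15, 0.65 for pqn-18, 0.53 for pqn-20 and 0.35 for pqn-24. All of these changes stayed above 0 and missed the threshold. Of the CHX libraries, replicate 1 ended the calls of pqn-20 (0.59) and pqn-36 (0.82) when left out. Replicate 2 ended those of pqn-15 (0.35), pqn-18 (0.66), pqn-20 (0.66) and pqn-24 (0.35). Replicate 3 ended those of pqn-18 (0.63), pqn-36 (0.57) and pqn-72 (0.45). For pqn-36 without CHX replicate 1 or no CHX replicate 2, the change was no smaller than with all libraries. The same was true of pqn-15 without no CHX replicate 3. Such a loss marks a call near the threshold and does not show that the rise rested on that library. Another 4 pqn genes had all CHX libraries above all no CHX libraries without passing the test, namely pqn-51, pqn-62, pqn-80 and pqn-87 (log2 fold changes of 0.25 to 0.36). Of these, pqn-51 passed without CHX replicate 1 (0.40) or no CHX replicate 3 (0.39), and pqn-80 without CHX replicate 1 (0.42). Each time the library left out was the lowest with CHX or the highest without, so the rise had to grow.

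**Figure D3:**
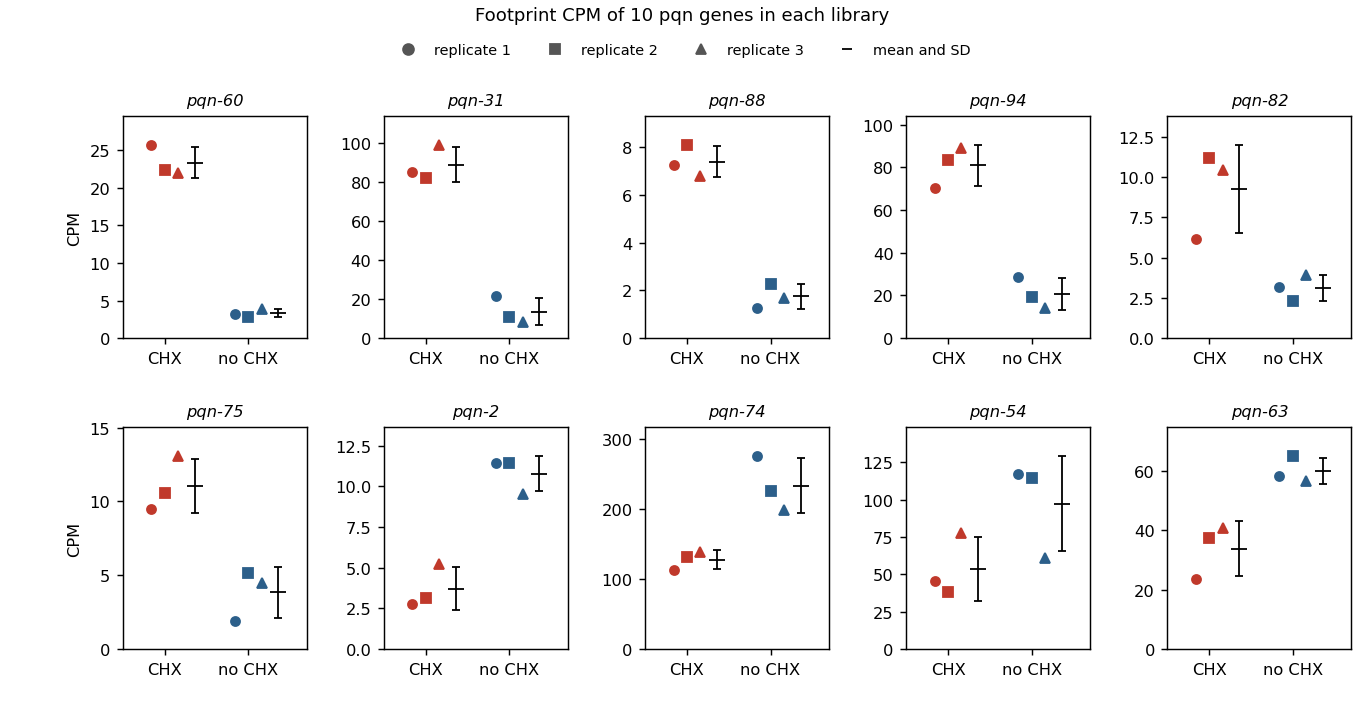
Footprint CPM of 10 pqn genes in each library, CHX left of no CHX, with a separate linear scale from 0 for each gene. Marker shapes give the replicate number and the bars are mean and SD over 3 libraries. The 6 risers with the largest changes (pqn-60 to pqn-75) and the 3 largest called falls (pqn-2, pqn-74, pqn-63) show no overlap between the groups, whereas pqn-54, which was not called, overlaps at replicate 3.

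Apart from pqn-74, the pqn genes with the most reads were not called. The gene pqn-59, the worm counterpart of the stress granule protein UBAP2L, had 688, 829 and 776 CPM with CHX and 837, 775 and 741 CPM without (log2 fold change -0.04 ± 0.0951 SE, edgeR adjusted p = 0.784). The gene pqn-52 had 386, 437 and 476 CPM with CHX and 449, 488 and 403 CPM without (-0.04 ± 0.104 SE, edgeR adjusted p = 0.766). In both, the groups overlapped and the difference was small against the spread. The gene pqn-22 had 386, 371 and 366 CPM with CHX and 455, 432 and 383 CPM without (-0.18, edgeR adjusted p = 0.148), with CHX replicate 1 just above no CHX replicate 3, and it passed without no CHX replicate 3 (-0.29, adjusted p = 0.0257). That was its lowest library without CHX, so the fall had to deepen. The gene pqn-87 had 361, 389 and 347 CPM with CHX and 341, 326 and 258 CPM without (0.25, edgeR adjusted p = 0.0782). Its groups were apart by a narrow margin. The gene pqn-83 had 166, 164 and 171 CPM with CHX and 171, 167 and 178 CPM without (-0.04, edgeR adjusted p = 0.759), and pqn-44, the poly(A) polymerase gene tent-5 in RefSeq, had 136, 162 and 163 CPM with CHX and 143, 143 and 146 CPM without (0.09, adjusted p = 0.531).

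Of the 16 pqn genes that were not tested, pqn-57, pqn-76, pqn-78 and pqn-79 had no read and pqn-11, pqn-16 and pqn-91 had 1 read each. The other 9 had at most 77 reads over the 6 libraries. The gene pqn-84 had 3 reads with CHX and 14 without, a ratio of 0.206 with a 95% counting interval of 0.0380 to 0.739. The gene pqn-90 had no read with CHX and 5 without, which is at least 1.73-fold lower with CHX against a floor of 3 reads over the group. The gene pqn-97 had 5 reads with CHX and none without, at least 1.60-fold higher with CHX on the same floor. These counts carry no test.

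Among the phat genes, phat-5 had the largest fold change of the tested members. It had 10.6, 11.2 and 12.0 CPM with CHX, against 0.634, 0 and 0 CPM without. That is 60 reads with CHX and 1 read without, a ratio of 57.8 with a 95% counting interval of 9.98 to 2319 (edgeR adjusted p = 3.49e-06). Like phat-6, it passed the filter only through the CHX group, so its p is not independent of its being high there. Reads were present in all 3 CHX libraries and in 1 no CHX library, and phat-5 kept its call without any 1 library. The gene phat-6 had 15.6, 13.1 and 7.85 CPM with CHX and 5.71, 6.86 and 4.49 CPM without (log2 fold change 1.08 ± 0.345 SE, edgeR adjusted p = 0.0176). Its groups did not overlap, but the call was lost without CHX replicate 1, CHX replicate 2, no CHX replicate 1 or no CHX replicate 3 (adjusted p = 0.0959, 0.0512, 0.0520 and 0.0727 in that order) and with DESeq2 (adjusted p = 0.0772).

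The other phat genes were not called or not tested. The gene phat-4 had 150.3, 137 and 155 CPM with CHX and 149, 177 and 133 CPM without (log2 fold change -0.05, edgeR adjusted p = 0.764). The gene phat-2 had 59.2, 55.4 and 66.5 CPM with CHX and 55.8, 55.4 and 61.7 CPM without (0.07, edgeR adjusted p = 0.723), and phat-1 had 25.1, 21.8 and 22 CPM with CHX and 19.0, 29.2 and 21.9 CPM without (-0.03, adjusted p = 0.932). In all 3 genes the groups overlapped. The gene phat-3 was too low to test, with 8, 5 and 5 reads with CHX and 0, 0 and 4 reads without, a ratio of 4.33 with a 95% counting interval of 1.43 to 17.6.

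**Figure D4:**
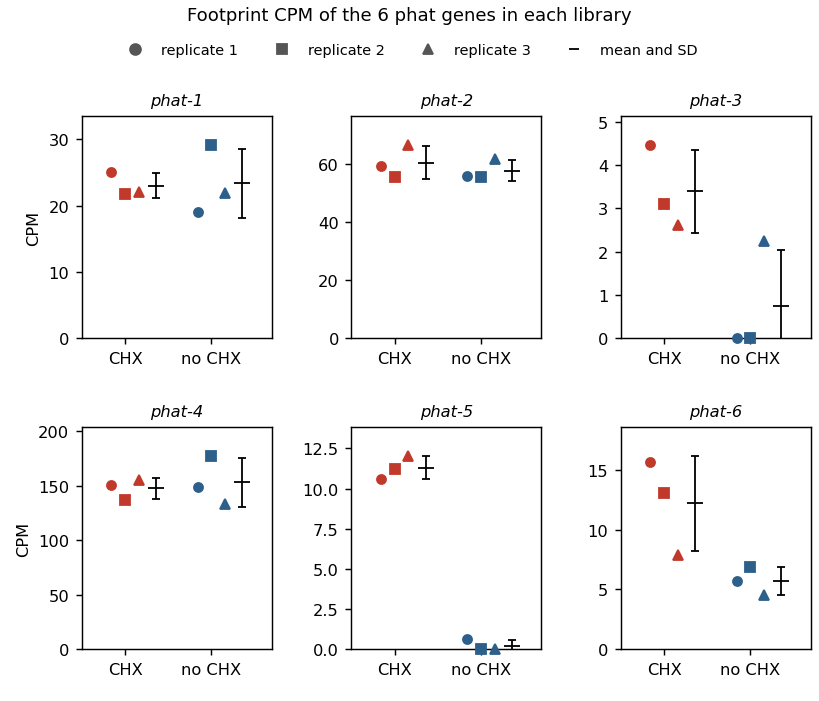
Footprint CPM of the 6 phat genes in each library, CHX left of no CHX, with a separate linear scale from 0 for each gene. Marker shapes give the replicate number and the bars are mean and SD over 3 libraries. Reads of phat-5 lie at 10.6 to 12.0 CPM with CHX and at 0 to 0.634 CPM without, while phat-1, phat-2 and phat-4 overlap. The gene phat-3 was not tested.

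Several members lie side by side in the genome (positions in build WBcel235). The genes phat-5 and phat-4 lie within chromosome V 4121489 to 4130909, where phat-5 rose and phat-4 was not called. The genes abu-15, abu-6, abu-7 and abu-8 lie within chromosome V 5158623 to 5194608, and none of them was called. The genes abu-1 and pqn-2 lie within chromosome V 10380340 to 10384063, with log2 fold changes of -0.69 (not called) and -1.50 (fell). At chromosome IV 15579086 to 15596645 lie pqn-76, abu-5, pqn-78 and pqn-79, the 4 of which had no read in any library. Near-identical copies can share reads, and how reads with several matches or the strand were counted is not given in the sources used here, so single values of clustered members are uncertain. Zero counts in such a cluster do not show that the genes were not translated.

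**Figure D5:**
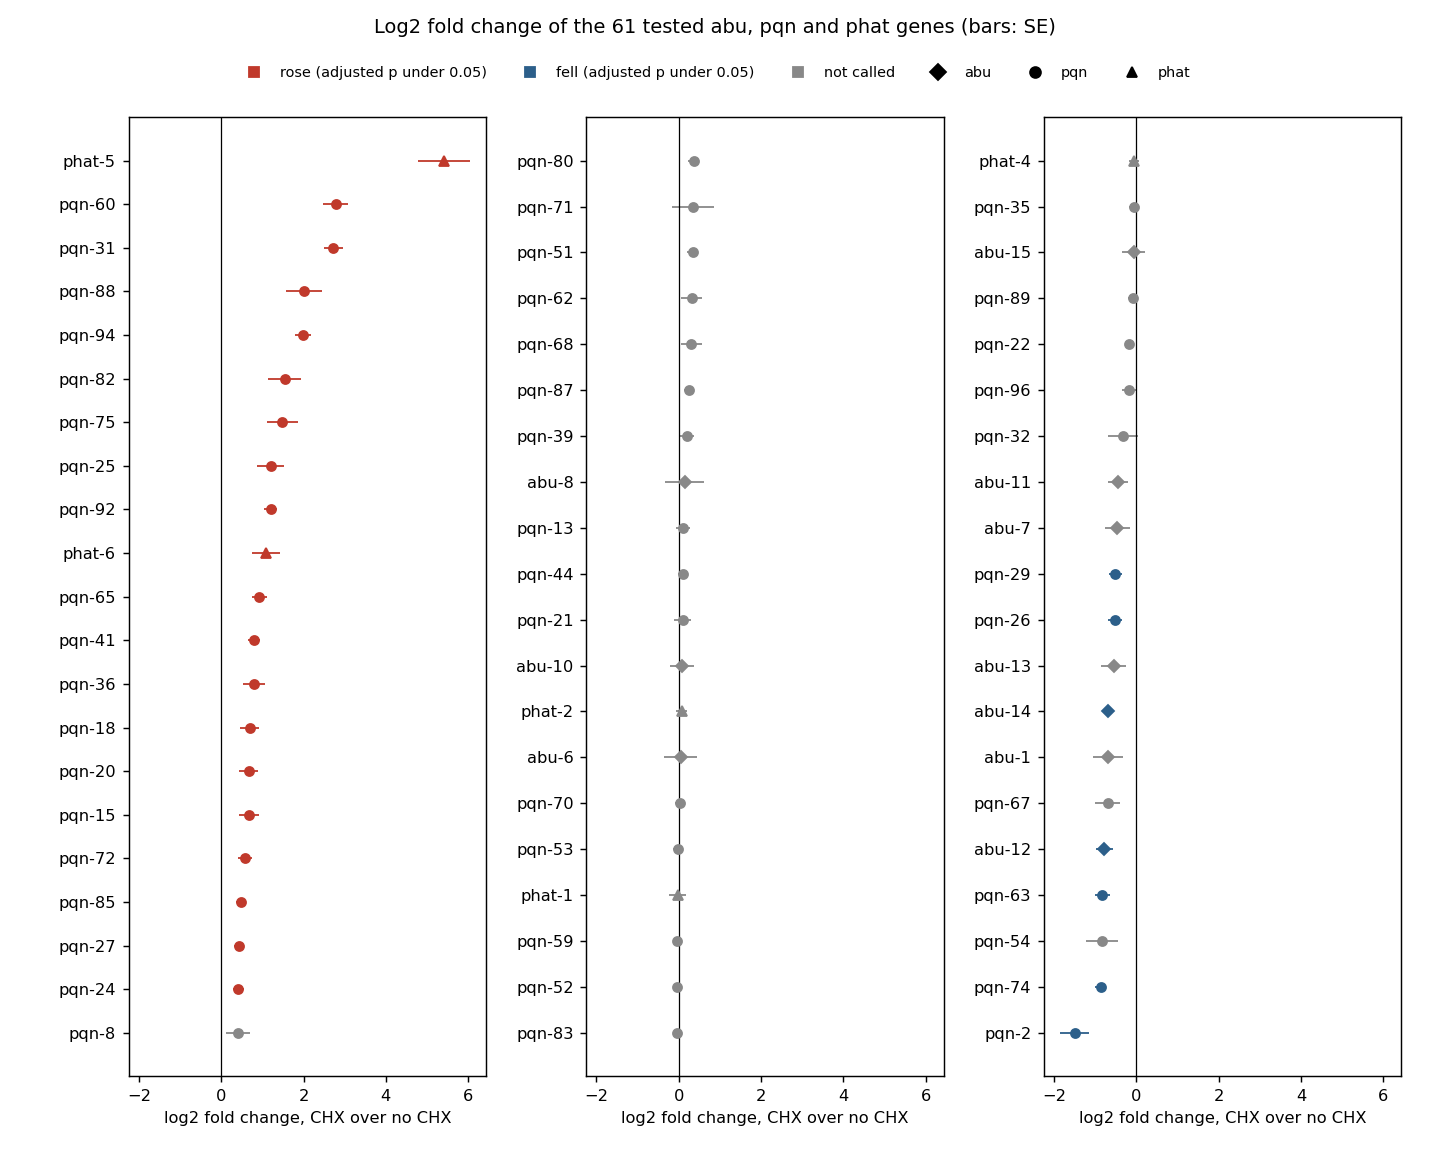
Log2 fold change (CHX over no CHX) of the 61 tested members, sorted over 3 panels with a common scale. Points are edgeR estimates with bars of 1 SE, coloured by call, and marker shapes give the family. The 20 risers are in the left panel, abu genes are absent from them, and the 7 that fell are in the right panel. The point of phat-5 is a fitted value that rests on 1 read in the no CHX group.

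Genes of the pharynx and its cuticle outside the 3 families were examined beside the members. Of 13 pharynx markers, 8 were tested, and 7 rose and none fell (median log2 fold change 0.70; over all genes tested 22.2% rose), with 6 rising and none falling in DESeq2 and none lower at an unadjusted p under 0.05. None of the 13 was without reads, though ceh-22 had 2 reads with CHX and 1 without. Their summed level was 737 to 908 CPM with CHX and 466 to 568 CPM without. Among them, marg-1, tested only through its CHX libraries, had 20.6 ± 5.99 CPM with CHX and 6.26 ± 3.21 CPM without (log2 fold change 1.72, edgeR adjusted p = 6.23e-04), and tnc-2, a troponin C of pharyngeal muscle, had 40.0 ± 0.962 CPM with CHX and 22.9 ± 1.96 CPM without (0.80, adjusted p = 0.00111; SD, n = 3 each). Most of that sum was myosin, since myo-1 and myo-2 together had 489 CPM with CHX and 318 CPM without, and the other 11 markers 322 CPM with CHX and 194 CPM without. The marker pha-4 was not called, and among the 5 that were not tested ceh-34 (2.97 CPM with CHX and 3.35 CPM without) and eat-5 (1.38 and 2.15 CPM) had lower means with CHX. The other untested markers, peb-1, eya-1 and ceh-22, had higher means with CHX. Of these, peb-1 had 7.86 CPM with CHX and 1.39 CPM without, with no overlap, and eya-1 had 1.31 and 0.613 CPM. The part of pharynx content in the member values was not tested. The pharyngeal gland markers were both too low to test, with 3 reads with CHX and 2 without for hlh-6, and 15 and 10 for kel-1. Of the 33 pharyngeal cuticle genes, 12 were tested, 6 rose and none fell in edgeR or DESeq2 (median 0.83), with fipr-7 (2.90, edgeR adjusted p = 1.18e-04) and fipr-26 (1.80, adjusted p = 0.00475) the largest rises. Both entered the test only through the CHX libraries, as did 5 of the 6 risers of this list, and of the 5 cuticle genes that reached the filter in each group 1 rose. The call of fipr-26 was lost without CHX replicate 3 (1.22). All 6 risers were fipr genes, which were taken by symbol and make up most of this list. The tested genes outside that family were not called, namely nas-6 (-0.18), nas-7 (-0.14), pgp-14 (0.28) and chs-2. The pharyngeal chitin synthase gene chs-2 was the 1 cuticle gene below 0 at an unadjusted p under 0.05 (-0.54, edgeR adjusted p = 0.0504).

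Molting genes, whose levels cycle with each larval stage, were examined in the same way. Of 17 tested, 3 rose (17.6%) and 2 fell (11.8%), against 22.2% and 20.0% of all genes tested (median log2 fold change 0.22). The genes that fell were nas-36, a protease needed for shedding the cuticle, with 79.2 ± 13.0 CPM with CHX and 142 ± 1.04 CPM without (-0.84, edgeR adjusted p = 4.96e-05), and nhr-23, a nuclear receptor that drives molting, with 9.93 ± 1.39 CPM with CHX and 20.0 ± 4.85 CPM without (-0.99, adjusted p = 0.00630). The protease gene nas-37 (1.23, edgeR adjusted p = 0.0253) and fbn-1, a fibrillin-like matrix gene tested only through its CHX libraries (2.16, adjusted p = 3.61e-04), rose. The call of nas-37 was lost without CHX replicate 1 (1.10) or without no CHX replicate 1, 2 or 3 (1.24, 1.33 and 1.01). Summed over the list, molting genes had 2220.0, 1453 and 1364 CPM with CHX and 1302, 1769.6 and 1490.2 CPM without. The libraries of a group differed, with CHX replicate 1 highest and no CHX replicate 1 lowest, and 12 of the 17 genes were highest in CHX replicate 1 among CHX libraries. Over all genes tested, 3261 of 10632 were. CHX replicate 1 was highest and no CHX replicate 1 lowest together in 11 of the 17 genes. This held in 8 of the 18 endoplasmic reticulum stress genes described below and in 1247 of all 10632 genes tested. Of the abu genes, abu-12 and abu-13 were likewise highest in CHX replicate 1 and lowest in no CHX replicate 1, and the other 8 had the replicate 3 order given above. The part of molting stage in the member values was not tested.

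Because the abu genes were named in an endoplasmic reticulum stress setting, 18 genes of that response were examined too. Of the 18, 4 rose (22.2%, the share of all genes tested that rose) and none fell (median log2 fold change 0.12), and with DESeq2 2 rose and none fell. None was lower at an unadjusted p under 0.05. They included ced-1, the engulfment receptor (0.87, edgeR adjusted p = 2.12e-05), and pek-1, the kinase of the PERK branch (0.89, adjusted p = 0.0112). The BiP chaperone gene hsp-4 had 2201, 1526 and 1569.8 CPM with CHX and 1049, 1192 and 3247 CPM without (-0.05, edgeR adjusted p = 0.953). Its highest library was no CHX replicate 3, and the groups overlapped. Among the no CHX libraries, 10 of the 18 genes were highest in replicate 3 (55.6%, against 36.2% of all genes tested). One of them was pek-1, with 27.9, 26.3 and 54.4 CPM without CHX.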

How the data were processed

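The 6 whole-worm ribosome profiling libraries (3 CHX, 3 no CHX) are the material. Per the labels' protocols, ribosomes were pelleted through 34% sucrose, and gel-cut fragments of 26 to 34 nucleotides went into a small RNA library kit. The deposited table holds the authors' raw counts of footprint reads per gene. The submitters' processing notes name DESeq2 and build WBcel235; no aligner, counter, or handling of duplicates, strand and multiple matches is named there or elsewhere in the labels. Positions are those in the deposited table's transcript headers (WBcel235), and alternative symbols came from a RefSeq table that matched all 82 members. Protein and promoter sequences were not used here.

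After filterByExpr (minimum count 10) and TMM scaling, edgeR 4.0.16 in R 4.3.3 fitted a robust quasi-likelihood model (glmQLFit, then glmQLFTest) to the 10632 genes left, with no covariate; adjusted p under 0.05 was called. The biological coefficient of variation was 11.1%. Errors are SD over 3 libraries or SE of the fit. Ratios of low counts have exact (Clopper-Pearson) 95% intervals, for counting error only. The method was tested on simulated data. Chi-square per degree of freedom was 1.89 to 3.35 within groups and 13.8 to 17.1 between them, so no library was a duplicate of another.

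The members and the comparison lists were chosen with earlier results of these data known, so no p-value is given for a list. Values in every library are given for the 10 members with the most reads, the 10 largest rises and falls called, the phat genes, and pqn genes called against the direction of most pqn genes; other members shown were chosen after their values were seen. Of each list, at most 2 called genes per direction are named. Besides these, ceh-22, ceh-34, eat-5, peb-1, eya-1, pha-4, myo-1, myo-2, chs-2, nas-6, nas-7, pgp-14, hsp-4, hlh-6 and kel-1 were also named after their values were seen. Alternatives were DESeq2 1.42.0, limma-voom (limma 3.58.1), median-of-ratios factors, no filter, a filter at a mean of 5 CPM, a block on replicate number, each library left out, and, added after seeing the data, replicate 3 of both groups left out.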

Additional observations from a re-analysis of the deposited data

How the results depend on the processing

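Of the 61 tested members, 60 kept direction and side of the threshold with median-of-ratios factors, 59 with limma-voom, 49 with DESeq2 and 60 without a filter. DESeq2 gave 12 members that rose (11 pqn, 1 phat) and 2 endoplasmic reticulum stress genes, and it also called abu-13 (-0.58) and pqn-54 (-0.88) as fallen. No filter gave 11 members that fell, 4 of them abu. Added were abu-4, pqn-48 and pqn-84, which the main filter had left untested, and abu-11, whose adjusted p was 0.00218 in edgeR without the filter. A filter on the mean over all 6 libraries (5 CPM), which takes no account of group, tested 60 of the 61 members, not pqn-88, and left the calls of all 60 as they were. Single libraries left out gave 2 to 4 abu genes that fell, 1 to 2 phat genes that rose, 1 to 3 molting genes that rose, 2 to 5 that fell, and 0 to 1 pharyngeal cuticle genes that fell. That last count was 1 with median-of-ratios factors, no filter and limma-voom. Leaving out replicate 3 of both groups, chosen after seeing the data and for its abu levels, so that the direction follows from the choice, gave 13 members that rose (11 pqn) and 12 that fell (6 abu). Where not stated otherwise, the cause of a change was not tested.

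Signs changed for members near 0. Over single libraries left out, log2 fold changes ran from -0.33 to 0.27 for abu-10, -0.41 to 0.13 for abu-15, -0.38 to 0.42 for abu-6 and -0.32 to 0.41 for abu-8. They ran from -0.19 to 0.11 for phat-1, -0.012 to 0.13 for phat-2 and -0.19 to 0.015 for phat-4. For pqn genes they ran from -0.087 to 0.17 (pqn-13), -0.018 to 0.18 (pqn-21), -0.16 to 0.035 (pqn-52), -0.13 to 0.012 (pqn-53), -0.12 to 0.034 (pqn-59), -0.081 to 0.061 (pqn-70), -0.17 to 1.04 (pqn-71) and -0.20 to 0.013 (pqn-89). Without replicate 3 of both groups, values were -0.63 for abu-6, -0.61 for abu-8, -0.48 for abu-10, -0.029 for pqn-21, 0.019 for pqn-53 and -0.12 for pqn-71. With limma-voom abu-15 was at 0.023, and pqn-70 was at -0.0018 with median-of-ratios factors and -0.0020 with DESeq2.

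Replicate numbers did not pair the libraries (correlations of deviations between same-numbered libraries of -0.113, -0.0803 and -0.0837). With the replicate number as a block, 18 members rose and 7 fell, and the calls of pqn-15 (0.66, edgeR adjusted p = 0.0571) and pqn-36 (0.78, adjusted p = 0.0833) were lost. Summing near-identical copies was not run, since no protein sequences were used. Depth limited the test to genes with about 10 reads in at least 3 libraries.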
